A study of Homo sapiens with 2 samples.

Results

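The EGF receptor family and its ligands were examined as 10 genes, the receptors EGFR, ERBB2, ERBB3 and ERBB4 and the ligands AREG, EREG, HBEGF, TGFA, BTC and EGF. Members were all probe sets that the platform annotation assigns to a single gene symbol among these names, which gave 33 probe sets for 9 genes, of 41091 such probe sets for 19775 genes in all. AREG was not analysed here. The samples were QGP1 cells, an established human line derived from a pancreatic neuroendocrine tumour. The ALDH-high group held QGP1 cells sorted by flow cytometry for strong aldehyde dehydrogenase activity, which is often used to collect stem-like cancer cells, and the control group held QGP1 cells without that label. The labels do not say whether the control cells were sorted too. Each group had 1 array, so no difference below has a replicate check or a p-value. Levels are log2 values made with RMA (robust multi-array average), and each difference is ALDH high minus control on that log2 scale. In RNA of a whole cell population, fewer cells that express a gene and less of its RNA per cell cannot be told apart.

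The ERBB receptors are membrane tyrosine kinases that pair with themselves or with each other when a ligand binds. Their ligands are made as membrane-anchored precursors that surface proteases release, and the paired receptors signal through the RAS to ERK cascade and through PI3 kinase. In the pancreas, EGFR and its ligand TGFA are known for their part in ductal metaplasia and in ductal cancer, and betacellulin was found in the medium of a beta cell tumour line.

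In the ALDH-high cells EGFR was 1.55-fold higher and ERBB3 1.41-fold lower on their highest-level probe sets, and the ligands were nearly level. None of the 9 measured members passed 2-fold in either direction. In the background of all 19775 genes, 0.465% passed 2-fold upwards and 1.23% downwards, and a count of 0 of 9 is near that background. At 1.5-fold EGFR was the only member called, where 2.61% of all genes passed upwards and 4.21% downwards. At the level of probe sets none of the 33 passed 2-fold and 2 passed 1.5-fold, both upwards. Of all probe sets with 1 symbol, 0.394% passed 2-fold upwards and 0.976% downwards, and 2.61% and 3.57% passed 1.5-fold. The members had a median difference of 0.10, against -0.01 for all genes, with 7 members above 0 and 2 below. Above 0 were 45.6% of all genes.

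The arrays had medians of 5.68 and 5.69, which RMA makes alike, so they do not show how alike the samples were. Neuroendocrine markers were at or above the median level for 9 of 9 measured genes and epithelial markers for 5 of 5. Of the markers of other cells, 2 of 6 fibroblast, 1 of 5 endothelial and 1 of 4 leukocyte genes were at that level. Summed on the linear scale, the fibroblast markers stood at 313.4 in ALDH high and 353.1 in control, the endothelial markers at 173.7 and 185.3, and the leukocyte markers at 101.9 and 157.8. The leukocyte genes LYZ (4.34 against 5.67) and CD14 (4.30 against 5.32) were over 2-fold lower at dim levels. With a pseudocount of 32 on the linear scale they were at -0.67 and -0.48. Leaving out probe sets with IDs that mark shared targets, LYZ was at -0.42. Of the other measured leukocyte genes, PTPRC was higher (3.56 against 3.34) and CD3E lower (5.65 against 5.83). The part of these genes in the results was not tested. The poly-A control transcripts, which are added to the RNA before labelling, were higher by 0.32 on average on the ALDH-high array (SD 0.07 over 24 probe sets), whereas the hybridisation controls differed by 0.05 (SD 0.04 over 18). The differences of most members are no larger than that of the poly-A controls, and the part of labelling in them was not tested. Probe sets of the same gene gave differences with a pooled SD of 0.23 over 10523 genes, and of 0.17 over probe sets at or above the median level on both arrays. This spread does not cover the spread between cultures or sorts.

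The sequences before the annotated start sites are shown for EGFR and ERBB4, the members that had a probe set over 1.5-fold. Each is the 250 bases before a RefSeq start (build GRCh38.p14), written 5′ to 3′ on the gene's strand, with capitals marking matches to the motifs searched. EGFR has 2 listed starts. The upstream window is chr7:55018767-55019016 (plus strand), the downstream window is chr7:55109589-55109838 (plus strand), and that of ERBB4 is chr2:212538803-212539052 (minus strand).
EGFR upstream start: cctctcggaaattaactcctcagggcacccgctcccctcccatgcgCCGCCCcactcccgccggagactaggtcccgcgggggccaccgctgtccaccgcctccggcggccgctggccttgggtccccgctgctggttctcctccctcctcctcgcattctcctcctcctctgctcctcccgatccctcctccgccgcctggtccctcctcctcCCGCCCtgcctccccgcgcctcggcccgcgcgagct
EGFR downstream start: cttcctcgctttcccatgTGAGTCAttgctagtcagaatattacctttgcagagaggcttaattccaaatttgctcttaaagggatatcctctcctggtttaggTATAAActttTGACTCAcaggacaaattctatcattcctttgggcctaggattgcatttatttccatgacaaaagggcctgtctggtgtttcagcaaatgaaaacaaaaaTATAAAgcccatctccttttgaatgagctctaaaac
ERBB4: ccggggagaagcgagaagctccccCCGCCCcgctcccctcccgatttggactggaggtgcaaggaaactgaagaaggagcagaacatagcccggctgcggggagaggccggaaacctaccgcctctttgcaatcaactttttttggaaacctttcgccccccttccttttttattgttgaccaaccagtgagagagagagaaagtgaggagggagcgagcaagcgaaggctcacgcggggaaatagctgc
The motifs, searched on both strands with overlaps allowed, were TATAAA, the GC box GGGCGG, the AP-1 site TGACTCA and the cyclic AMP response element TGACGTCA. The upstream EGFR window was 73.6% G or C, above 86.9% of the 35116 windows in the table, and held 2 GC boxes and none of the other motifs. The downstream EGFR window was 38.8% G or C and held 2 TATAAA and 2 AP-1 matches. The ERBB4 window held 1 GC box. Over all windows of this length 42.6% held the GC box, 10.7% TATAAA, 4.20% the AP-1 site and 1.65% the cyclic AMP response element. A match is a description of these letters, and from which start the measured RNA came was not tested.

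EGFR, which binds all of the ligand members, had the largest difference among the genes on their highest-level probe sets. That probe set (224999_at) read 8.80 in ALDH high and 8.16 in control, a 1.55-fold higher level, and 2.11% of all genes had a larger positive difference. The next probe sets by level read 8.04 against 7.65 (201983_s_at) and 7.45 against 6.99 (201984_s_at). All 3 were higher in the ALDH-high cells, by 0.63, 0.40 and 0.47, and each difference exceeded the spread between probe sets of a gene. Both 201983_s_at and 201984_s_at are open to shared targets by their ID. Among 5508 genes with at least 3 probe sets, the 3 of highest level all differed by at least as much as the smallest of these, 0.40, in 130 genes (2.36%), a measure chosen after the EGFR values were seen.

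The remaining 6 EGFR probe sets were near or below the median level and did not share that size. They differed by 0.23 (211607_x_at, 6.04 against 5.81), 0.08 (210984_x_at, 5.82 against 5.74) and -0.02 (1565483_at, 6.02 against 6.04). The dimmest were 1565484_x_at (5.55 against 5.72), 211550_at (5.41 against 5.39) and 211551_at (5.26 against 4.94), with differences of -0.17, 0.02 and 0.32. Over all 9 probe sets 7 lay above 0, and the mean was 0.22 (SD 0.26 over 9 probe sets, which are not replicates). The size given for EGFR therefore depends on which probe sets stand for it.

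ERBB3, which binds neuregulins, has little kinase activity of its own and recruits PI3 kinase, differed the opposite way. Its highest-level probe set (226213_at) read 9.69 in ALDH high and 10.19 in control, a 1.41-fold lower level. The probe set listed with its RefSeq transcript (202454_s_at) read 8.42 against 8.95. Both were lower, with nearly the same difference of -0.50 and -0.52. A dimmer probe set, 1563253_s_at, was also lower, at 5.61 against 5.995. By their IDs 202454_s_at and 1563253_s_at are open to shared targets, whereas 226213_at is not. The other dim probe sets read 5.98 against 5.83 (1563252_at) and 4.42 against 4.45 (215638_at), differences of 0.16 and -0.03. ERBB3 lay among the lower genes, with 5.56% of all genes below it. In 300 of 10523 genes with at least 2 probe sets (2.85%), the 2 of highest level both differed by -0.50 or less, a measure again chosen after the values were seen.

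Set against each other, the differences of EGFR and ERBB3 lay 1.13 apart on their highest-level probe sets, so that the ratio of EGFR to ERBB3 signal was 2.19-fold higher on the ALDH-high array. Over the 6 pairings of the 3 EGFR with the 2 ERBB3 probe sets the gap ran from 0.90 to 1.16. As the mean of all probe sets of each gene it was 0.47, a 1.39-fold ratio, and as the mean of the probe sets that reached the median level on both arrays it was 0.59. This ratio within an array shows unequal differences and does not say which gene held its level. The pair was chosen after the values were seen.

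**Figure D1:**
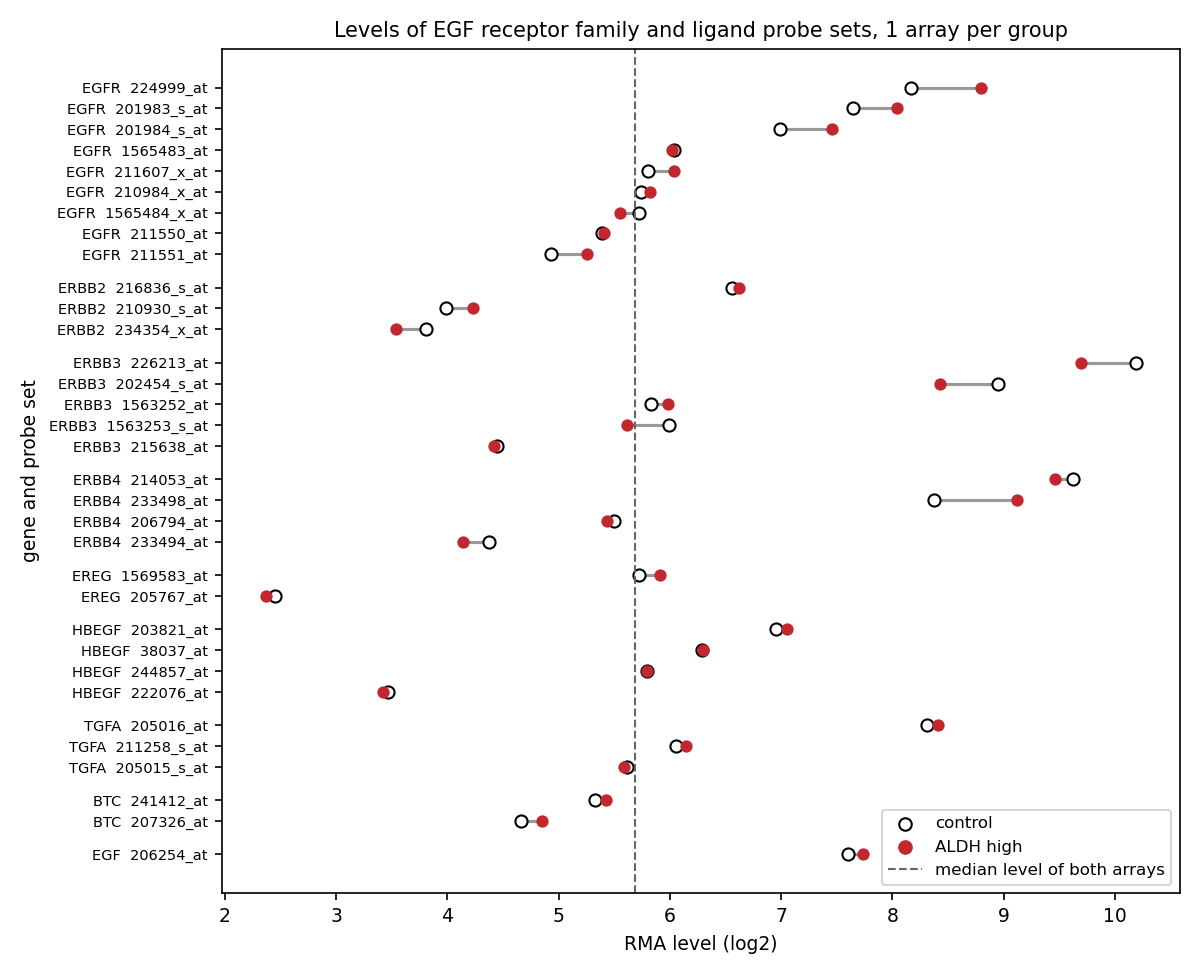
RMA level (log2, horizontal axis) of each of the 33 member probe sets, with open circles for the control array, filled circles for the ALDH-high array and a dashed line at the median level of both arrays, 5.68. The 3 highest-level EGFR probe sets lie to the right of their controls, by 0.40 to 0.63. The 2 highest-level ERBB3 probe sets lie to the left, at -0.50 and -0.52.

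ERBB4, a receptor for neuregulins and for some of the EGFR ligands, gave discordant readings. Its highest-level probe set (214053_at) read 9.46 in ALDH high and 9.62 in control, a difference of -0.17. The next (233498_at) read 9.12 against 8.38, 1.68-fold higher and the largest difference of any member probe set. Both were well above the median level on both arrays, and they differed by 0.91. The dim probe sets read 5.43 against 5.50 (206794_at, listed with the RefSeq transcript) and 4.14 against 4.38 (233494_at), differences of -0.07 and -0.23. ERBB4 was thus lower on 3 probe sets and higher on 1, and no single direction holds for the gene.

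ERBB2, which has no known ligand and serves as the partner of the other receptors, was nearly level. Its highest-level probe set (216836_s_at) read 6.62 in ALDH high and 6.56 in control. The others were dim, at 4.23 against 3.98 (210930_s_at) and 3.54 against 3.80 (234354_x_at), and differed by 0.24 and -0.27. Every ERBB2 probe set has an ID that marks shared targets, so none is free of possible cross-hybridisation. As a group the 4 receptors had a median of -0.06, with EGFR and ERBB2 above 0 and ERBB3 and ERBB4 below. The sign of that median turned to 0.04 as the mean of all probe sets of each gene.

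**Figure D2:**
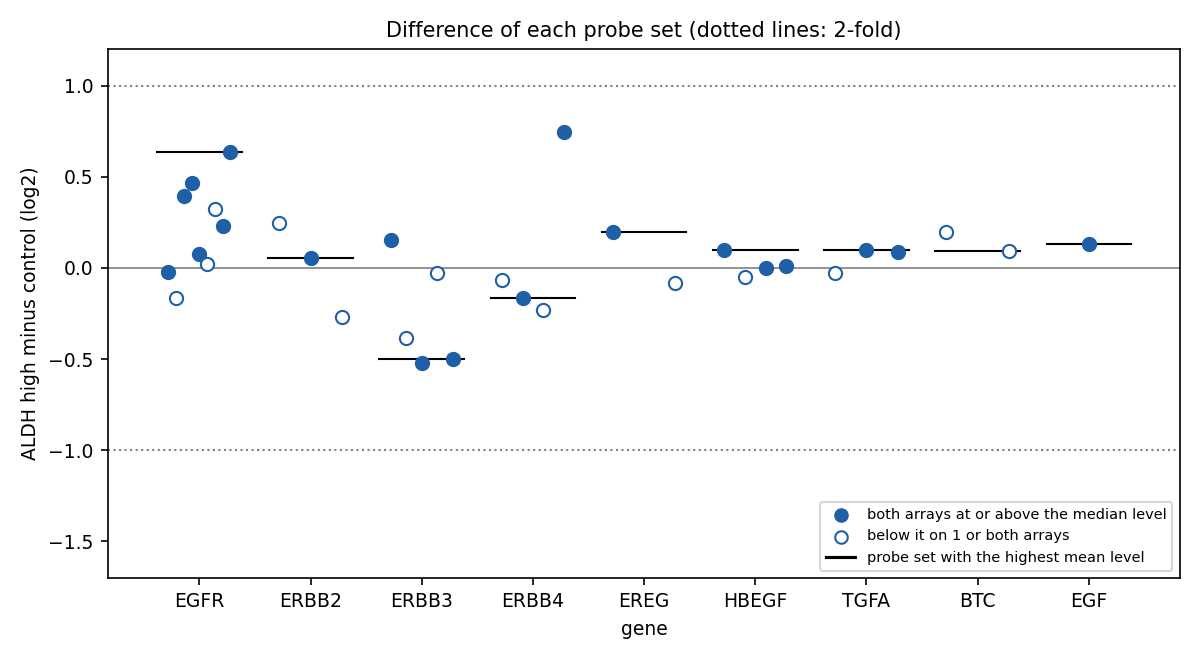
Difference ALDH high minus control (log2, vertical axis) of each member probe set by gene, filled where both arrays were at or above the median level, with a bar at the probe set of highest mean level and dotted lines at 2-fold. No probe set reaches 2-fold, the 3 highest-level EGFR and 2 highest-level ERBB3 probe sets lie on opposite sides of 0 while dimmer ones of each gene cross it, and the ligand probe sets stay within 0.20 of 0.

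The ligands lay close to 0 on every probe set. The 12 ligand probe sets had a largest absolute difference of 0.20, below the 0.23 spread between probe sets of a gene, with 8 above 0, 3 below and 1 equal. For probe sets at or above the median level on both arrays that spread was 0.17, and the EREG probe set 1569583_at, at 0.20, exceeded it. The 5 measured ligand genes were all slightly higher in the ALDH-high cells, between 0.10 and 0.20, with a median of 0.10. For comparison, the median absolute difference of all genes was 0.16.

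TGFA, an EGFR ligand made by many epithelial tumours, read 8.41 in ALDH high and 8.31 in control (205016_at). A further probe set at 6.15 against 6.06 (211258_s_at) differed by a similar amount, 0.09 beside 0.10, and the dimmest (205015_s_at) read 5.58 against 5.61. EGF, the ligand that gave the receptor its name, had 1 probe set (206254_at), which read 7.73 against 7.60. HBEGF, a heparin-binding ligand that also serves as the diphtheria toxin receptor, read 7.05 against 6.95 (203821_at) and 6.30 against 6.29 (38037_at). The other HBEGF probe sets were equal at 5.79 (244857_at) and dim at 3.42 against 3.47 (222076_at). None of these genes differed beyond the spread between probe sets.

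BTC and EREG were read only near or below the median level. BTC, betacellulin, read 5.43 in ALDH high and 5.33 in control (241412_at) and 4.85 against 4.66 (207326_at, listed with the RefSeq transcript). EREG, epiregulin, read 5.92 against 5.72 on its higher probe set (1569583_at). The EREG probe set listed with the RefSeq transcript (205767_at) read 2.37 against 2.45, at the 2.09th and 2.77th percentiles of the arrays, so the direction of EREG depends on the probe set and the arrays say little about it. The deposited table has no detection calls, so whether dim genes were expressed cannot be read from it.

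Many readings, most of them dim, had a difference that recurred in other probe sets. For 12 of the 33 member probe sets, 20 or more probe sets of the table shared the same absolute difference to 6 decimals, among them the HBEGF difference of exactly 0, found in 2877 probe sets. Of the 12, 211607_x_at, 210984_x_at, 1563252_at and 244857_at were at or above the median level on both arrays. How far a recurring difference can be read was not tested. None of the 3 highest-level EGFR probe sets or the 2 highest-level ERBB3 and ERBB4 probe sets was among the 12. At or above the median level on both arrays were 19 member probe sets, from 8 of the 9 genes, all but BTC. Of the 8 members with several probe sets, 7 had readings on both sides of 0, the exception being BTC.

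The remaining ERBB ligands, mostly neuregulins that bind ERBB3 and ERBB4, were also within 2-fold. NRG4, a ligand of ERBB4, read 5.92 in ALDH high and 5.46 in control on its single probe set, a 1.37-fold higher level. Its absolute difference was shared by 23 probe sets to 6 decimals, as for 12 of the member probe sets, and it was 0.28 with a pseudocount. NRG2 read 5.96 against 5.99. Of 4 measured genes 2 lay above 0 and 2 below, with a median of 0.02 that turned to -0.13 over the 2 genes left without such recurring differences. EPGN was not analysed here.

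The proteases that release the ligands, with their partners, were all within 2-fold. Of 11 genes 7 lay below 0 and 4 above, where 50.3% of all genes lay below 0. The median was -0.17, against -0.01 for all genes, and -0.10 as the mean of each gene's probe sets. ADAM17, the main sheddase of TGFA and HBEGF, was 1.30-fold lower (8.99 against 9.36), with its 3 probe sets between -0.38 and -0.36. RHBDF1, an inactive rhomboid that carries ADAM17 to the cell surface, was 1.94-fold lower (6.06 against 7.02) on a probe set with an ID that marks shared targets. With a pseudocount the RHBDF1 difference was -0.71. The other, dimmer RHBDF1 probe set differed by -0.19 (4.80 against 4.98). ADAM10, the main sheddase of EGF and BTC, named after its value was seen, read 11.08 against 11.09.

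Genes that restrain the receptors or remove them from the surface were all within 1.5-fold. Of 14 measured genes 8 lay below 0, near the share of all genes, 5 above and 1 was equal, with a median of -0.10. ERRFI1, a feedback inhibitor that binds the EGFR kinase, was 1.39-fold lower on its single probe set (8.60 against 9.08). LRIG3, of a family of membrane proteins that act on ERBB receptors, was 1.33-fold lower on its single probe set (5.55 against 5.96). Its ALDH-high reading was below the median level, and with a pseudocount the difference was -0.26. RNF41, a ubiquitin ligase that directs ERBB3 to degradation, named after its value was seen, read 8.49 against 8.82. CBL, the ubiquitin ligase of activated EGFR, also named after its value was seen, read 8.96 against 8.82.

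Adaptors and direct effectors lay mostly below 0. Of 18 measured genes 16 were below 0, against 50.3% of all genes, with a median of -0.15 and 1 over 2-fold lower. All 18 reached the median level on at least 1 array, whereas that share covers genes of any level. That gene was SHC4, an adaptor of the SHC family, which read 5.13 in ALDH high and 6.41 in control, 2.43-fold lower, and its second probe set 4.55 against 5.86. Both ALDH-high readings were below the median level, and with a pseudocount the difference was -0.81, within 2-fold. EPS15, an endocytic adaptor first found as an EGFR substrate, was 1.57-fold lower (10.36 against 11.01), and its second probe set was lower by a like amount (9.93 against 10.64). The central adaptors GRB2 (10.11 against 10.14) and SHC1 (11.49 against 11.60), named after their values were seen, were nearly level.

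In the RAS to ERK cascade, 7 of 12 listed genes were measured and none was over 2-fold. HRAS, a RAS GTPase with 1 probe set here, was 1.60-fold higher (9.75 against 9.07) and ARAF 1.19-fold higher (8.31 against 8.06), although the second ARAF probe set was lower (6.94 against 7.10). The median was -0.04, and its sign turned to 0.01 as the mean of each gene's probe sets and to 0.11 over the 4 genes with a probe set listed with a RefSeq transcript. Among 17 transcripts that ERK signalling induces, 13 lay below 0 and 3 above, where 50.3% of all genes lay below 0. The median was -0.18, and -0.84 over the 7 genes with a probe set listed with a RefSeq transcript. Over 2-fold lower were 2 of the 17, against 1.23% of all genes. The transcription factor genes EGR1 (7.79 against 9.15) and FOS (6.77 against 7.94) were those genes. The 3 EGR1 probe sets lay between -1.36 and -0.94, and all have IDs that mark shared targets. FOS was at -0.97, within 2-fold, once a pseudocount was added. DUSP6, the ERK phosphatase often read as a measure of pathway output and named after its value was seen, differed by -0.19 (11.68 against 11.88). DUSP4, of the same list, was 1.88-fold lower (10.66 against 11.57), with its 3 probe sets between -0.93 and -0.56. IER3, MYC and PHLDA1 were lower too, at -0.84, -0.55 and -0.47, whereas the 3 genes above 0 reached at most 0.27. IER3 and MYC each had 1 probe set, with an ID that marks shared targets. The 6 PHLDA1 probe sets lay between -1.32 and -0.47. DUSP4, IER3, MYC and PHLDA1 were also named after their values were seen.

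**Figure D3:**
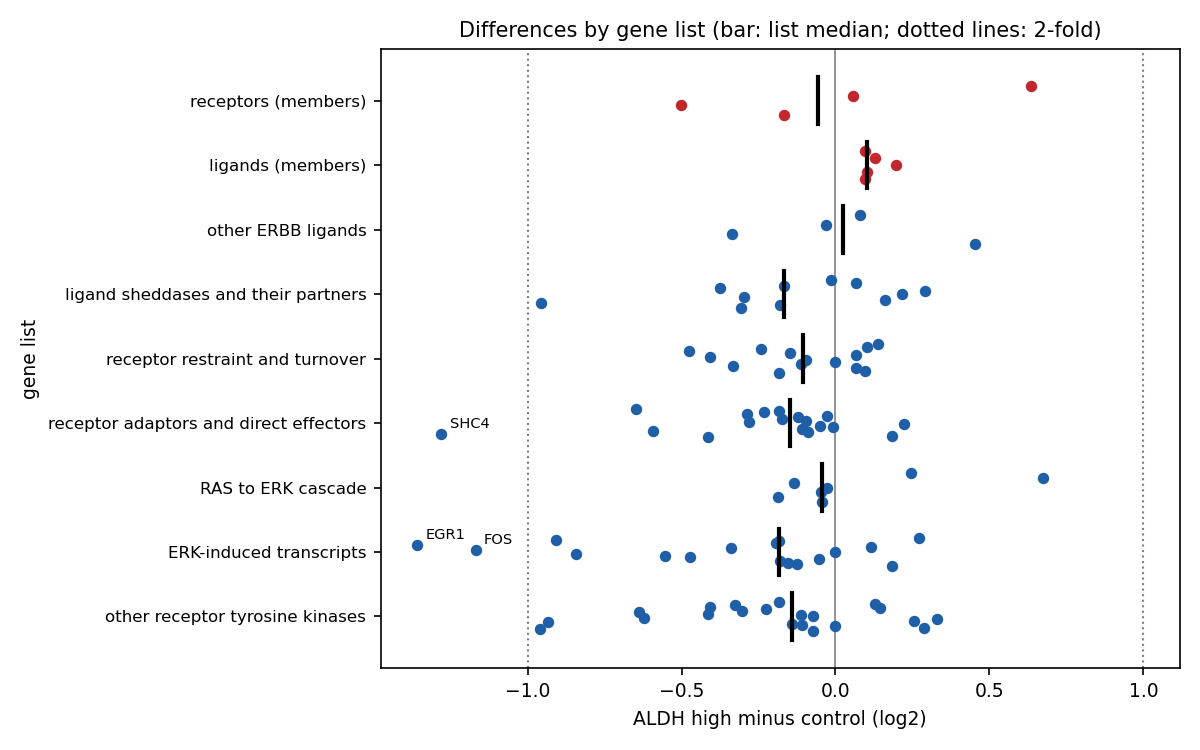
Difference ALDH high minus control (log2, horizontal axis) of the receptor and ligand members (red) and of the genes of 7 pathway lists (blue), 1 point per gene on its highest-level probe set, with a bar at each list's median and dotted lines at 2-fold. The ligand members cluster between 0.10 and 0.20, the receptors spread from -0.50 to 0.63, and SHC4, EGR1 and FOS are the points beyond 2-fold.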

How the data were processed

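RNA of ALDH-high and of control QGP1 cells was each hybridised to 1 Affymetrix array, with RNA integrity above the labels' stated minimum. The authors deposited log2 levels per probe set, and RMA is the tool that the submitters' processing notes name. RMA in general corrects background, quantile-normalises arrays and summarises probes by median polish, which makes the arrays' distributions alike, so a shift shared by most genes would not be seen. Its version is not stated there. Of 54675 probe sets, 62 Affymetrix controls were set aside.

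Names came from GEO's platform annotation, using probe sets with 1 symbol only. The probe set whose mean over both arrays was highest stood for its gene. Differences were ALDH high minus control, called at over 2-fold, the threshold in the series description. With 1 array per group no test was made, and the number of arrays limits the precision. An ID with _s_at or _x_at marks a probe set open to shared targets.

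The members and 7 pathway lists, with 92 of 105 genes measured, were chosen with earlier results of these data known. In each list the genes named are those over 2-fold and the 2 with the largest difference among genes that reached the median level on either array, unless stated. Because 2 arrays give 1 difference per gene, no genes of like pattern are named. RefSeq start-site windows were found for 9 of the 10 members. Values were recomputed under 8 other settings: the mean or median of a gene's probe sets, leaving out shared-target probe sets, a pseudocount of 32, a level filter, leaving out recurring differences, centring and a 1.5-fold threshold. A further 2 settings were added after seeing the data. Python 3.11.15, pandas 2.3.3 and NumPy 2.4.6 were used.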

Additional observations from a re-analysis of the deposited data

How the results depend on the processing

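No paired analysis was possible because each group had 1 array. No member passed 2-fold under any alternative at that threshold, and at 1.5-fold 1 member was higher (EGFR) and 0 lower. Over all genes the higher count of 92 became 56 with the mean and 55 with the median of probe sets, 50 with the pseudocount, and 516 at 1.5-fold, and the lower count of 243 became 127 with the pseudocount and 833 at 1.5-fold. The alternatives added after seeing the data gave 51 higher and 134 lower with probe sets listed with a RefSeq transcript, and 52 and 140 with the mean of probe sets at or above the median level on both arrays, partly because fewer genes have such probe sets. EGFR stayed above 0 in all 9 alternatives, from 0.22 to 0.63, and ERBB3 below 0 in all 9, from -0.52 to -0.26. Many of these alternatives were no separate check of direction. Leaving out shared-target probe sets, the level filter, leaving out recurring differences and centring returned the main values, 0.63 for EGFR and -0.50 for ERBB3. The pseudocount kept each gene's probe set, so it could not change a sign. ERBB4 ran from -0.17 to 0.29 and EREG from -0.08 to 0.20, so their directions turned. ERBB2, HBEGF, TGFA, BTC and EGF kept their sign with sizes from 0.005 to 0.20. With probe sets listed with a RefSeq transcript the ERK-induced list, then 7 genes, had a median of -0.84 in place of -0.18. The median of the receptors ran from -0.17 to 0.17. Dim levels limit BTC, EREG and most ERBB2 readings.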

Other observations

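Receptor tyrosine kinases outside the ERBB family were all within 2-fold. Of 21 measured genes 15 lay below 0 and 5 above, where 50.3% of all genes lay below 0. The median was -0.14, and -0.07 as the mean of each gene's probe sets. ROR1, a receptor of the Wnt5a pathway, was 1.95-fold lower (8.65 against 9.61), with its 3 probe sets between -0.96 and -0.45. FGFR4, a fibroblast growth factor receptor, was 1.56-fold lower on its highest-level probe set (5.49 against 6.12), and its other probe sets ranged from -0.11 to 0.08. That ALDH-high reading was below the median level, and with a pseudocount the difference was -0.405. MET, the hepatocyte growth factor receptor, read 12.00 in ALDH high and 11.67 in control, with its 4 probe sets all higher and a mean of 0.34, beside 0.22 for the mean of the EGFR probe sets. RET, the receptor of the GDNF family, read 11.03 against 10.74, with its 3 probe sets between -0.005 and 0.29. KIT, the stem cell factor receptor, read 8.55 against 9.17 on its single probe set, whose ID marks shared targets. IGF1R, the insulin-like growth factor receptor, read 9.55 against 9.96. Its 5 probe sets lay between -0.41 and 0.31, with a mean of -0.13. MET, RET, KIT and IGF1R were named after their values were seen.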
